A study of Mus musculus with 2 samples.

Results

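The E2F transcription factors and the RB-like pocket proteins were examined in mouse embryonic fibroblasts (MEFs) without and with Bmi1. The group comprised 10 genes of 18194 with a named probe set, namely E2f1 to E2f8, Rbl1 (p107) and Rbl2 (p130). All 22 probe sets annotated to exactly 1 of these genes were taken, and 0 further probe sets named a member together with another gene. RNA came from 1 culture of Bmi1 null MEFs and 1 culture of Bmi1 wild-type MEFs, and each was hybridised to 1 Affymetrix mouse expression array. Both lines derived from littermates and both are labelled male and C57BL/6. Both had also been immortalised with TBX2, so they are a model of cycling, immortalised cells in serum rather than of primary fibroblasts. TBX2 is a T-box repressor known to silence the Ink4-Arf locus. Neither line was replicated, no test could be run, and effects of genotype cannot be told apart from those of the culture, the line or the array. Every count given is a description of 2 arrays.

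E2F factors bind promoters of genes for S phase entry, DNA replication and mitosis. E2F1, E2F2 and E2F3 are classed as activators, which RB holds in check until cyclin-dependent kinases phosphorylate it. E2F4 and E2F5 act mainly as repressors together with p107 and p130, in quiescent cells as part of the DREAM complex. E2F6, E2F7 and E2F8 repress without pocket proteins, and E2F6 has been purified with Polycomb proteins, Bmi1 among them. Several E2F and pocket protein genes are themselves transcribed under E2F control.

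Promoter sequences were searched for E2F sites, because members and E2F target genes can share this element. RefSeq windows of 300 bases, from 250 before to 50 after an annotated start, were at hand for 8 of the 10 genes (10 windows, build GRCm38.p6). The letters TTTCCCGC, TTTCGCGC, TTTGCCGC and TTTGGCGC were sought on both strands, and no matches of different motifs overlapped in the members. A match was found in 4 of the 10 windows, in E2f2, E2f3, E2f7 and Rbl1, whereas 2.26% of all 32851 windows of the same length held one. These 4 windows are shown 5′ to 3′ along the gene, with the matched letters in capitals.
E2f2, chr4:136172024-136172323, plus strand: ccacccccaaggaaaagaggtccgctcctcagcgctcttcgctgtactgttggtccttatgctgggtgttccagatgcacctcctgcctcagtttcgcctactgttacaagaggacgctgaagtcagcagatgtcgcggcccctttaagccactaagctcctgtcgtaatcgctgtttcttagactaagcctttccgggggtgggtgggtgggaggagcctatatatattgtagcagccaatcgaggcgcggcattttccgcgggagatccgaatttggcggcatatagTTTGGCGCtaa
E2f3, chr13:29986014-29986313, minus strand: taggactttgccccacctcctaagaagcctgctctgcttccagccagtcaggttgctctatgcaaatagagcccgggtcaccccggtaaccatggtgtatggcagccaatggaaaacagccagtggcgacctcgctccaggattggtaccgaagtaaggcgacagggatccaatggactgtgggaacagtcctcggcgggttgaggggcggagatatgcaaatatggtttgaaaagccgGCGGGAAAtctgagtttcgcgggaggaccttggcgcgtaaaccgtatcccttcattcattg
E2f7, chr10:110745189-110745488, plus strand: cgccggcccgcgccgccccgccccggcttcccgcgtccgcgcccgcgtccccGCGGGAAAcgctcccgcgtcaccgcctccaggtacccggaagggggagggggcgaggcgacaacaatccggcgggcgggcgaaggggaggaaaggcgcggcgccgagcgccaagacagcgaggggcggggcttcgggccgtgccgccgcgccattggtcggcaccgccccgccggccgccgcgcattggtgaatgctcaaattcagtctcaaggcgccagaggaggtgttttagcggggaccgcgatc
Rbl1, chr2:157204485-157204784, minus strand: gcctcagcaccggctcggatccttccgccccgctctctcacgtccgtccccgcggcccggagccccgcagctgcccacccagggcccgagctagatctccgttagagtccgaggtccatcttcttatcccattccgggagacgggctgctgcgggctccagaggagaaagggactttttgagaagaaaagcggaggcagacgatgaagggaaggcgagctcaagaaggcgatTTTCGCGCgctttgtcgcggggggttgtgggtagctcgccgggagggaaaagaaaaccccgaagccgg

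The matches lay at different distances from the annotated start. In Rbl1 the site TTTCGCGC began 18 bases before the start, and in E2f3 the site TTTCCCGC, on the opposite strand, began 11 bases before it. The site in E2f2, TTTGGCGC, lay 40 bases into the transcript, and the site in E2f7, TTTCCCGC on the opposite strand, began 198 bases before the start. Windows of E2f1, E2f6, E2f8 and Rbl2 held none of these letters, nor did a further window each of E2f2 and E2f3. Before its annotated start, the E2f1 window reads largely as protein-coding sequence of E2f1 itself. The promoter upstream of the E2f1 coding sequence was therefore not searched, and its lack of a match does not describe that promoter. The further E2f2 window also begins in coding sequence. The cell cycle homology region letters TTTGAA or TTCGAA, an element used by DREAM and B-MYB at late cell cycle genes, were present in 4 of the 10 member windows (E2f2, E2f3, E2f8 and Rbl2) and in 19.2% of all windows. A match is a string of letters and not a measured binding site.

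Both arrays were first read as a whole. Values are MAS5 intensities, scaled by the authors. The mean signal of each array, trimmed of 2% of probe sets at either end, was 500. Signals below a floor of 100 were set to 100, a probe set that stayed at or below it in both lines counts as not measured, and below it in 1 line the fold is a lower bound. Bmi1 signal at its brighter probe set was 2146 in null cells and 9933 in wild-type cells (4.63-fold lower), while another Bmi1 probe set read 831 in null cells and 931 in wild-type cells. Where these Bmi1 probe sets lie relative to the deleted part is not known here. All 10 fibroblast markers were measured. At least 2-fold higher in null cells were 3 of them, Lum, Col3a1 and Col1a1 (5.73% of all measured genes). At least 2-fold lower was 1, Thy1 (5.16% of all), and the values of Lum and Thy1 are bounds. At another probe set Col1a2 had a log2 ratio (null over wild-type) of 1.54 and Fn1 one of −1.01. Of 16 markers of other cell types 7 were measured. Upk3b and Epcam were at least 2-fold higher (5.73% of all measured genes were), with Epcam at 834 in null and 149 in wild-type cells. Msln and Cdh5 were at least 2-fold lower (5.16% of all were), with Cdh5 a bound. Differences were smaller for the macrophage marker Adgre1 (118 in null, 171 in wild-type), the endothelial marker Kdr (206 in null, 150 in wild-type) and Sox10 (169 in null, 126 in wild-type). The other 9, Ptprc, Pecam1 and Cdh1 among them, were below the floor on both arrays. The summed signal of these 16 markers was 4585 in null cells and 4371 in wild-type cells. These sums hide opposite differences, with Upk3b at 1693 in null and 188 in wild-type cells and Msln at 1031 and 3006. The summed signal of the 10 fibroblast markers was 114820 in null cells and 94230 in wild-type cells. The Y chromosome genes Eif2s3y, Uty and Kdm5d were below the floor in null cells and between 712 and 1683 in wild-type cells, which goes against the label male of the null line. What these line differences contribute to the member values was not tested.

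At their brightest probe sets 8 of the 10 genes differed by less than 2-fold, and for E2f2 and E2f8 only a lower bound under 2-fold could be given. Each gene was represented by its brightest probe set, judged by mean log2 signal. By that measure 8 of 10 genes were higher in null cells, with E2f4 and E2f6 lower, and the median log2 ratio (null over wild-type) was 0.27, or 1.21-fold. E2f2 and E2f8 exceeded the floor in null cells alone, so their direction was fixed once they counted as measured. Over all 11766 measured genes the median was 0.0060 and 50.6% were higher. Signal 2-fold higher was found for 0 of 10 members and 5.73% of all measured genes, and 2-fold lower for 0 members and 5.16% of all. The count of 0 higher depends on the floor, since E2f2 passed 2-fold with a floor of 0.1 of the trimmed mean (log2 ratio 1.41) and without a floor (1.71). At the level of probe sets, 17 of 22 were measured, 14 of them on both arrays and 3 as bounds. Of these, 12 were higher and 5 lower in null cells, where 48.8% of all 20620 measured probe sets with 1 gene were higher. The 3 bounds, of E2f2, E2f8 and Rbl1, are among the 12, and the floor fixed their direction in the same way. Of the 17, 0 were 2-fold higher (5.06% of all) and 1, for E2f5, was 2-fold lower (5.1% of all). The member signals were modest, since 6 of the 22 probe sets reached 500 on an array and the highest was 1360.

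**Figure D1:**
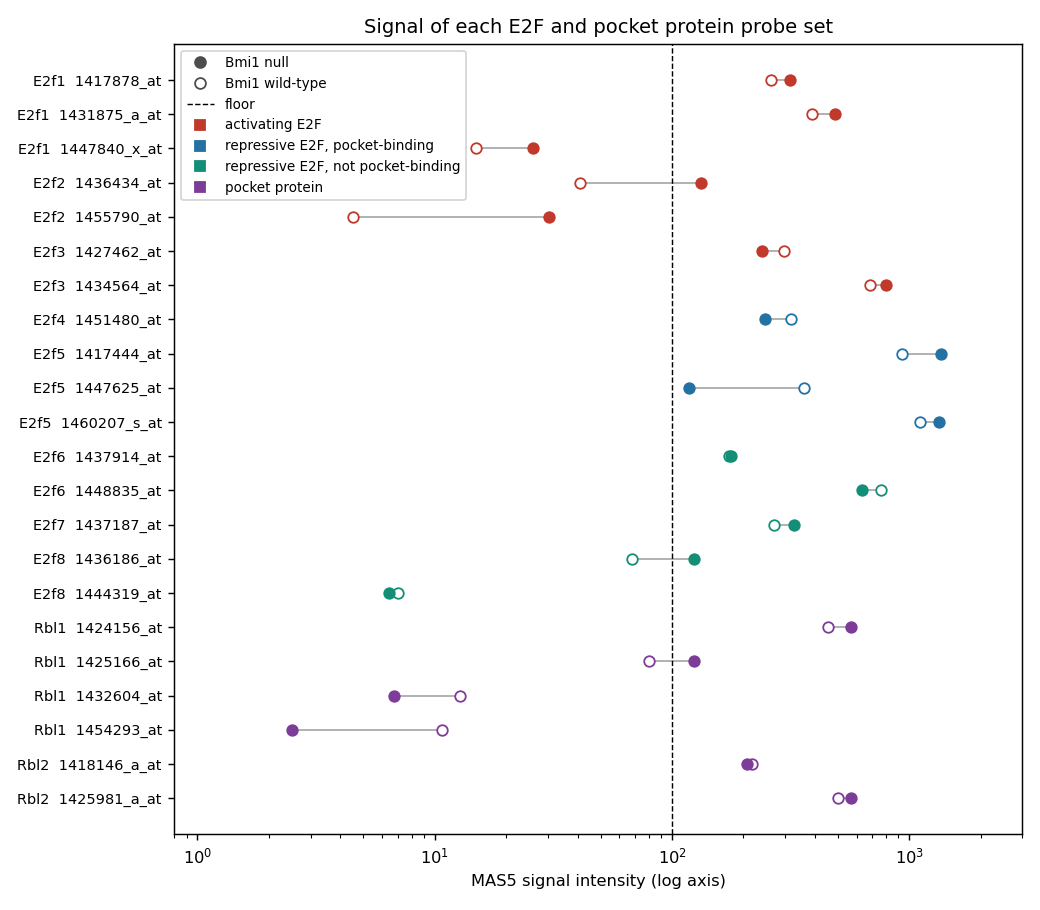
MAS5 signal (x axis, log scale) of each of the 22 member probe sets (rows) on the Bmi1 null array (filled) and the Bmi1 wild-type array (open), coloured by role, with the floor of 100 as a dashed line. Points of a row lie close together for most probe sets right of the floor, and the widest gap there is that of E2f5 1447625_at, at 118 in null and 361 in wild-type cells.

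An error can be drawn from genes read by several probe sets. Their log2 ratios had an SD of 0.33 over 1775 pairs with a brighter signal of 100 to 500, and of 0.31 over 5470 pairs at 500 to 2000. This covers probe set error alone and not the spread between cultures. Of the 10 gene values, 3 lay farther from 0 than this SD, those of E2f2 (a bound of 0.41), E2f4 (−0.37) and, narrowly, Rbl1 (0.33), against 48.3% of all measured genes. The value of E2f8, at least 0.30, is a bound and may also lie beyond it.

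Among the activating factors all 3 genes were higher in null cells at their brightest probe set. The amount was 1.17-fold and 1.25-fold for E2f3 and E2f1, with only a lower bound for E2f2. E2f2 was measured through its null signal alone, which fixed its direction. E2f1, the activator best known for inducing both S phase and apoptosis, read 488 in null cells and 390 in wild-type cells at 1431875_a_at, 1.25-fold higher (log2 ratio 0.33). Its second measured probe set, 1417878_at, read 314 in null cells and 260 in wild-type cells, 1.21-fold higher (log2 ratio 0.27). The E2f1 probe sets thus differed by 0.054 on the log2 scale, a smaller gap than in 86.6% of all pairs of probe sets of 1 gene. A further E2f1 probe set, 1447840_x_at, was not measured (26.0 in null and 14.9 in wild-type cells).

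E2f2, an activator that overlaps with E2F1 and E2F3 in proliferating cells, was close to the floor. Its brighter probe set, 1436434_at, read 133 in null cells and 40.8 in wild-type cells, at least 1.33-fold higher (log2 ratio of at least 0.41). The other, 1455790_at, read 30.2 in null cells and 4.53 in wild-type cells and was not measured. Both E2f2 probe sets therefore had the higher signal in null cells, but only 1 reading of 4 exceeded the floor. Without a floor the ratio of the brighter probe set was 1.71 on the log2 scale, a value that rests on a wild-type signal under the floor.

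E2f3, the activator with the closest link to the timing of S phase entry, gave opposite readings. The probe set 1434564_at read 798 in null cells and 684 in wild-type cells, 1.17-fold higher (log2 ratio 0.22). The probe set 1427462_at read 240 in null cells and 296 in wild-type cells, 1.23-fold lower (log2 ratio −0.30). The gap of 0.52 between them was reached by 16.8% of all pairs. E2f3 is transcribed from alternative promoters into E2F3a and E2F3b, of which the shorter form is often placed with the repressors, and the annotation does not say which form a probe set detects. The mean of both E2f3 probe sets was −0.039, so its direction depends on the probe set.

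Repressive factors that bind pocket proteins showed no common direction. E2f4, the main E2F of quiescent cells, has 1 probe set, which read 245 in null cells and 317 in wild-type cells, 1.29-fold lower (log2 ratio −0.37). This was the lowest gene value of the group, and 20.6% of all measured genes had a ratio as low or lower. E2f5, which like E2F4 relies on p107 and p130, was read by 3 probe sets that disagreed.

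For E2f5 the brighter probe sets were higher in null cells and the dimmest was lower. The probe set 1460207_s_at read 1330 in null cells and 1107 in wild-type cells, 1.20-fold higher (log2 ratio 0.27). The probe set 1417444_at read 1360 in null cells and 936 in wild-type cells, 1.45-fold higher (log2 ratio 0.54), the highest ratio of the member probe sets measured in both lines. The probe set 1447625_at read 118 in null cells and 361 in wild-type cells, 3.05-fold lower (log2 ratio −1.61). This was the 1 member probe set past 2-fold, and its null signal lay close to the floor. It stood 2.15 and 1.88 below the others on the log2 scale, gaps reached by 0.168% and 0.294% of all pairs of probe sets of 1 gene. The platform annotation ties none of the 3 to a listed RefSeq transcript of E2f5, and which transcript each detects is not known here.

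**Figure D2:**
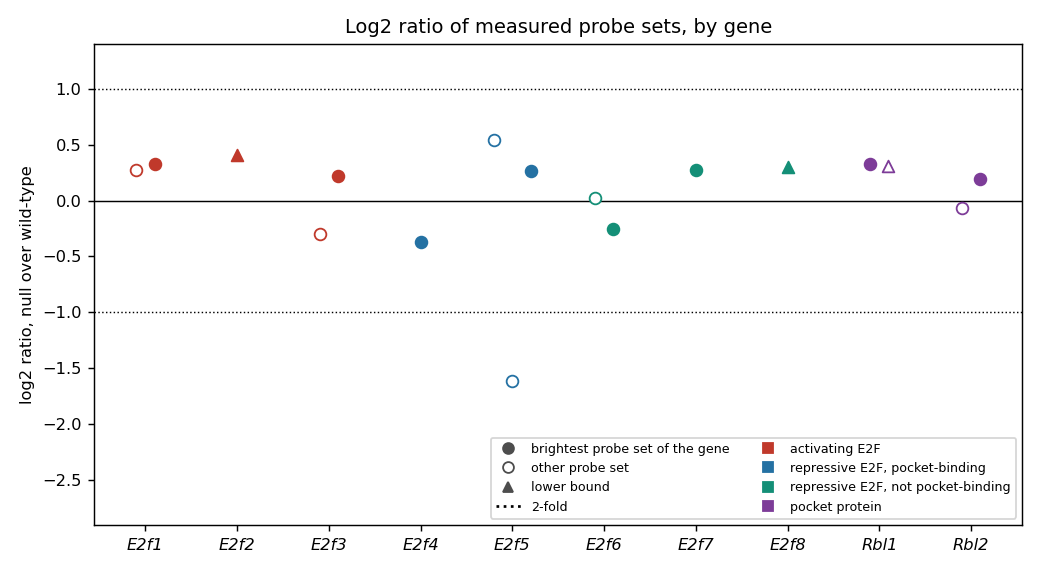
Log2 ratio, null over wild-type (y axis), of the 17 measured probe sets by gene (x axis), coloured by role. Filled symbols are the brightest probe set of a gene, open symbols the others, triangles are lower bounds, and dotted lines mark 2-fold; E2f5 1447625_at, at −1.61, is the point plotted beyond 2-fold, and E2f3, E2f5, E2f6 and Rbl2 have probe sets on both sides of 0.

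Repressors that act without pocket proteins likewise showed no common direction. E2f6, the member tied to Polycomb complexes, read 635 in null cells and 759 in wild-type cells at 1448835_at, 1.20-fold lower (log2 ratio −0.26). Its other probe set, 1437914_at, read 178 in null cells and 175 in wild-type cells, a log2 ratio of 0.024. Its 2 probe sets were thus lower and level in the absence of Bmi1. E2f7, an atypical E2F with tandem DNA-binding domains that represses E2F1 itself, read 325 in null cells and 269 in wild-type cells at its 1 probe set, 1.21-fold higher (log2 ratio 0.28). E2f8, its partner with the same architecture, read 123 in null cells and 67.7 in wild-type cells at 1436186_at, at least 1.23-fold higher (log2 ratio of at least 0.30). A second E2f8 probe set, 1444319_at, was not measured at 6.44 in null and 7.01 in wild-type cells. E2f7 and E2f8 were on the higher side in null cells. The E2f8 value is a bound set by the floor, measured through its null signal alone, which fixed its direction.

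The pocket protein genes differed by at most 1.25-fold at their brightest probe sets. Rbl1, which encodes p107 and is itself a classical E2F target, read 569 in null cells and 454 in wild-type cells at 1424156_at, 1.25-fold higher (log2 ratio 0.33). A dimmer Rbl1 probe set, 1425166_at, read 124 in null cells and 80.4 in wild-type cells, at least 1.24-fold higher (log2 ratio of at least 0.31). The remaining Rbl1 probe sets, 1432604_at and 1454293_at, lay between 2.50 and 12.7 on the 2 arrays and were not measured. Rbl2, which encodes p130, the pocket protein typical of quiescence, read 570 in null cells and 499 in wild-type cells at 1425981_a_at, 1.14-fold higher (log2 ratio 0.19). Its other probe set, 1418146_a_at, read 207 in null cells and 217 in wild-type cells, a log2 ratio of −0.066. Rbl1 was on the higher side at both measured probe sets and Rbl2 at 1 of 2. The dimmer Rbl1 probe set was measured through its null signal alone, which fixed its direction.

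Activating and repressive E2F genes were set against each other, since a shift in their balance would bear on E2F output. The median log2 ratio was 0.33 for the 3 activating genes and 0.27 for the 5 repressive genes, a difference of 0.060. All 3 activators and 3 of 5 repressors were above 0, where 50.6% of all measured genes were. E2f2 and E2f8 among them were measured through their null signals alone, which fixed their direction. The ranges overlapped, from 0.22 to at least 0.41 for activators and from −0.37 to at least 0.30 for repressors. With probe sets averaged within each gene the repressive median was −0.12 and the difference 0.41. Without E2f5 1447625_at, an exclusion chosen after its value was seen, these were 0.28 and 0.023, so that 1 probe set carries this larger difference. With the floor at 0.4 of the trimmed mean, where E2f2 and E2f8 were not measured, the medians were 0.27 and 0.0039 and the difference 0.27. The difference between activators and repressors thus depended on the floor and on the choice of probe sets.

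The dimerisation partners and the founding pocket protein were next read. Typical E2F factors bind DNA as dimers with DP proteins. Tfdp1 read 3062 in null cells and 2469 in wild-type cells, 1.24-fold higher. Tfdp2 read 967 in null cells and 886 in wild-type cells, 1.09-fold higher, with its 3 probe sets between −0.16 and 0.42 on the log2 scale. Rb1 read 816 in null cells and 1073 in wild-type cells, 1.31-fold lower (log2 ratio −0.39). None of these 3 reached 2-fold, and Rb1 lay opposite to Rbl1 and Rbl2 at their brightest probe sets.

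Measured genes of MuvB, DREAM and the E2F6 complex also differed by less than 2-fold at their brightest probe sets. Of 6 measured genes of MuvB and DREAM 0 differed 2-fold (10.9% of all measured genes did) and 1 was above 0 (50.6% of all were). Their median log2 ratio was −0.14. The histone chaperone subunit Rbbp4 (6513 in null, 7570 in wild-type) and the DREAM-assembling kinase Dyrk1a (760 in null, 886 in wild-type) had log2 ratios of −0.22 each. Other probe sets of both genes were lower, down to −0.63 for Rbbp4 and −0.79 for Dyrk1a. Of 11 measured genes of the E2F6 complex with Polycomb proteins (PRC1.6) 0 differed 2-fold and 6 were above 0, close to the share of all measured genes (50.6%). Their median was 0.013. Its deacetylase Hdac2 read 5426 in null cells and 4489 in wild-type cells, and its YY1-binding subunit Yaf2 read 2982 in null cells and 3367 in wild-type cells. At the brightest probe sets log2 ratios ran from −0.22 to 0.56 in the first list and from −0.44 to 0.28 in the second.

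Genes downstream of E2F had a higher median ratio than the factors themselves. Of 23 measured G1/S target genes 18 were above 0 (50.6% of all measured genes were). The threshold of 2-fold was passed upwards by 6 (5.73% of all measured genes) and downwards by 0 (5.16% of all). The median was 0.56, a difference of −0.29 (members minus targets). The size of this difference depends on the probe sets. Without suffixed probe sets the medians were 0.38 for the targets and 0.28 for the members. With probe sets averaged within each gene they were 0.53 and 0.17. Targets at least 2-fold higher numbered 4 under either setting. Tk1, a thymidine kinase of S phase, read 562 in null cells and 157 in wild-type cells, 3.59-fold higher. Ccne1, the cyclin that drives S phase entry, read 645 in null cells and 253 in wild-type cells, 2.55-fold higher. Uhrf1 (1038 in null, 464 in wild-type), which maintains DNA methylation, and Rrm2 (2588 in null, 1232 in wild-type), a ribonucleotide reductase subunit, were 2.24-fold and 2.10-fold higher. However, a second Uhrf1 probe set had a log2 ratio of 0.43, and the 3 Rrm2 probe sets ran from 0.82 to 1.22. Pcna (5013 in null, 5236 in wild-type), the replication clamp, and Cdt1 (2342 in null, 2384 in wild-type), a licensing factor, are named after their values were seen as bright targets at log2 ratios of −0.063 and −0.026, with a second Cdt1 probe set at 0.090. The targets thus differed widely among themselves.

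The late cell cycle genes that DREAM represses in quiescence and FOXM1 activates in G2 were mostly higher in null cells. Of 21 measured, 19 were above 0 (50.6% of all measured genes were). At least 2-fold higher were 4 (5.73% of all measured genes) and 2-fold lower were 0 (5.16% of all). The count of 4 was 2 with a pseudocount and no floor, and 2 without suffixed probe sets. The median was 0.82, or 1.77-fold, a difference of −0.55 (members minus these genes). Ccnb2, a mitotic cyclin, read 1042 in null cells and 423 in wild-type cells, 2.46-fold higher, and the proliferation marker Mki67 read 742 in null cells and 308 in wild-type cells, 2.41-fold higher. The exceptions, named after their values were seen, were the spindle midzone gene Prc1 (log2 ratio −0.31) and Foxm1 itself (−0.18), each with a second probe set above 0 (0.13 for Prc1 and 0.16 for Foxm1). A difference in the share of cycling cells between the cultures and a difference in transcript per cell cannot be told apart here.

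**Figure D3:**
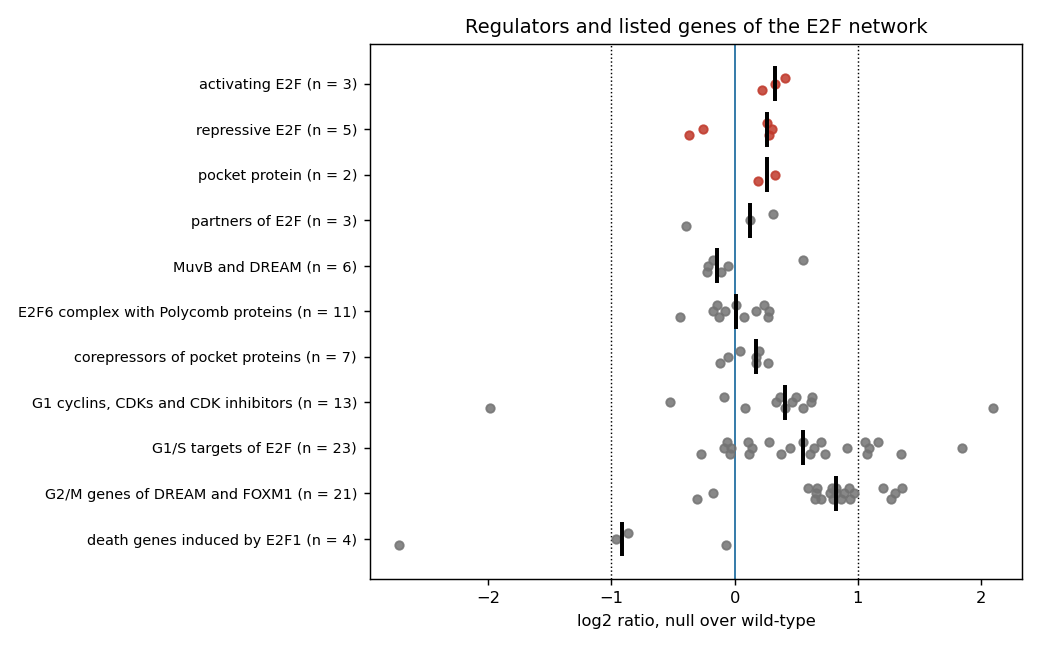
Log2 ratio, null over wild-type (x axis), of each measured gene in the 3 member classes (red) and 8 lists of partners, complexes and targets (grey). Black bars are medians, the blue line is the median of all measured genes (0.0060) and dotted lines mark 2-fold; members are plotted between −0.37 and 0.41, with E2f2 and E2f8 at their lower bounds of 0.41 and 0.30, while the G1/S and G2/M medians are at 0.56 and 0.82.

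A further group of E2F1 targets went the other way. Of 4 measured death genes that E2F1 can induce, 0 were above 0 (50.6% of all measured genes) and 1 was at least 2-fold lower (5.16% of all). Their median was −0.91. Pmaip1, which encodes the BH3-only protein NOXA, read 526 in null cells and 3471 in wild-type cells, 6.60-fold lower. Bcl2l11, which encodes BIM, read 453 in null cells and 883 in wild-type cells, 1.95-fold lower, with its probe sets between −1.09 and −0.079 on the log2 scale. Both are also targets of other factors, p53 and FOXO among them.

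Upstream of the pocket proteins, most G1 cyclin and kinase genes and most of the inhibitor genes were higher in null cells. Of 13 measured, 10 were above 0 (50.6% of all measured genes were). In each direction 1 passed 2-fold (5.73% of all measured genes upwards and 5.16% downwards). The median was 0.41. The D-type cyclins Ccnd1 (7863 in null, 6106 in wild-type) and Ccnd2 (9868 in null, 6987 in wild-type), whose kinases phosphorylate pocket proteins, were 1.29-fold and 1.41-fold higher. Cdkn2a, the Ink4-Arf gene that Bmi1 is known to repress and whose product p16 inhibits those kinases, was 4.27-fold higher, at 1415 in null cells and 331 in wild-type cells. The annotation does not say whether the probe set separates p16 from Arf. The gene past 2-fold in the other direction, named for that count, was the inhibitor Cdkn1c, at 44.0 in null cells and 396 in wild-type cells, at least 3.96-fold lower. The inhibitor Cdkn1a, named after its value was seen, was also lower, at 3579 in null cells and 5164 in wild-type cells.

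Whether the promoter letters went with expression was read across genes. An E2F match was present in 12 of 22 G1/S genes with a window (54.5%), in 4 of 8 members with one, and in 1 of 17 G2/M genes, against 2.60% of 27025 genes. The 21 measured G1/S genes with a window had median log2 ratios of 0.53 with a match (12 genes) and 0.28 without (9 genes), with overlapping ranges. Over all genes, the 443 measured ones with a match had a median of −0.0039, against 0.0058 in the 9083 without. Signal was 2-fold higher in 3.61% of genes with a match and in 5.46% of those without, and 2-fold lower in 3.39% and 4.82%. The share past 2-fold was thus no larger among genes with these letters. The 4 members with a match were all above 0 at their brightest probe set, although the floor fixed the direction of E2f2. Of the 4 with a window but no match, E2f1, E2f8 and Rbl2 were above 0 and E2f6 below it. The direction of E2f8 was fixed in the same way as that of E2f2. The E2f1 window reads largely as coding sequence before its start, so whether E2f1 belongs with the genes without a match is not known here.

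**Figure D4:**
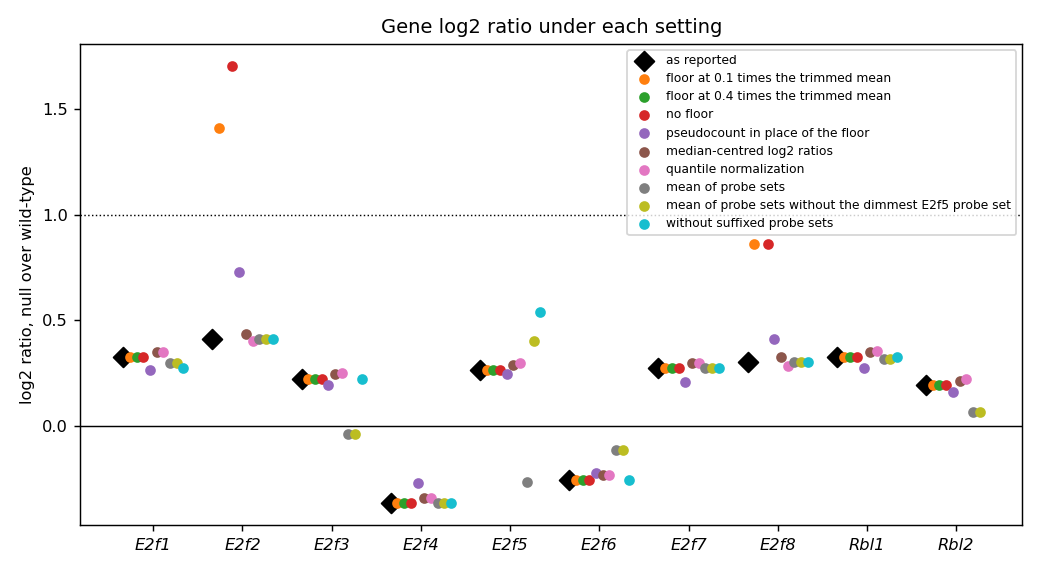
Log2 ratio, null over wild-type (y axis), of each member gene (x axis) as reported (diamonds) and under 9 other settings (circles), with 2-fold dotted. Most genes hold their place, E2f2 and E2f8 move upwards when the floor is lowered or removed, and E2f3 and E2f5 fall below 0 when probe sets are averaged.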

How the data were processed

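Total RNA of both lines was reverse-transcribed, labelled with biotin and hybridised to Affymetrix mouse arrays. The authors derived the deposited intensities with MAS5, 1 linear value per probe set. Arrays were scaled as a whole, which would remove a shift common to the majority of genes. The target of that scaling is not given in the sources used here. Present and absent calls were not used here. Gene names came from the platform annotation, where 34958 of 45101 probe sets had 1 symbol, and 34754 matched RefSeq by Entrez identifier. Signals were floored at 0.2 times the trimmed mean of their array, and log2 ratios, null over wild-type, were taken in Python 3.11.15 with pandas 2.3.3. The calculation was tested on simulated data. Both arrays entered each comparison, 1 per group, without a statistical test, and the number of arrays limits the precision. The members, gene lists and motifs were chosen with earlier results of these data known. Named besides the members were, per list, up to 4 genes past 2-fold with a signal of at least 500, largest difference first, or else the 2 brightest, and Bmi1, Cdkn2a, Tfdp1, Tfdp2, Rb1 and Mki67. Promoter windows and their build are those of RefSeq. Listed genes with no probe set of 1 symbol were not analysed here. Alternatives changed the floor, the scaling, the summary over probe sets and the probe set types.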

Additional observations from a re-analysis of the deposited data

How the results depend on the processing

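Of 263 values recomputed under 8 planned settings and 1 added after the data were seen, 247 moved by less than the probe set SD of 0.30 (log2) or, for counts, stayed within 1.5 times, 16 moved further and 0 values past 2-fold turned direction. Member probe sets at least 2-fold higher numbered 1 when the floor was 0.1 of the trimmed mean and 2 without a floor, and those at least 2-fold lower numbered 0 when it was 0.4 and 2 without a floor. With the mean of probe sets the repressive E2F median was −0.12 and the activating minus repressive difference 0.41, which was −0.0040 without suffixed probe sets. G2/M genes at least 2-fold higher numbered 2 with a pseudocount and 2 without suffixed probe sets. Without a floor 2347 of all genes were 2-fold higher and 1580 2-fold lower, since every probe set then kept a ratio. The sign was kept in 84 of 87 values of single member genes. The exceptions were E2f3 and E2f5 with probe sets averaged, where E2f5 was at −0.27, and E2f3 also in the average that omits E2f5 1447625_at, the added setting. The member median ranged between 0.17 and 0.29. E2f2 and E2f8 are limited by signal over background, with log2 ratios without a floor of 1.71 and 0.86. No paired analysis was possible because each group holds 1 array.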

Other observations

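Other genes around E2F and the pocket proteins were read in the same way. Germline genes that E2F6 is known to silence in somatic cells, Stag3, Smc1b, Slc25a31 and Tuba3b, were below the floor on both arrays, with signals of 2.13 to 35.7 in null cells and 1.71 to 36.0 in wild-type cells, and gave no ratio. Of 7 measured corepressors of pocket proteins 0 differed 2-fold (10.9% of all measured genes did) and 5 were above 0 (50.6% of all were). Their median log2 ratio was 0.17, with Hdac2 at 0.27 and Hdac1 at 0.17. Among ubiquitin ligase subunits that act on E2F factors or p130, Skp2 read 846 in null cells and 741 in wild-type cells (its 6 probe sets ran from −0.57 to 0.24 on the log2 scale) and Fzr1 read 613 in null cells and 616 in wild-type cells. Ccnf, chosen after seeing its value, encodes cyclin F and read 191 in null cells and 111 in wild-type cells, 1.72-fold higher. The B-MYB gene Mybl2, chosen in the same way, read 187 in null cells and 128 in wild-type cells, 1.47-fold higher. It was the 1 gene above 0 in the list of MuvB and DREAM, and it is also counted among the G1/S targets.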
